A study of Mus musculus with 8 samples.

Results

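The genes described here build the machinery of regulated exocytosis, by which a secretory cell holds filled vesicles at its surface and releases them when calcium rises. They are 39 genes chosen by name, the SNARE, synaptotagmin, Rab3 and vesicle-priming genes and their partners on the vesicle membrane, of 48440 genes in the table. All 39 were matched to a row by symbol and identifier. They fall into 5 roles, among them 9 genes of the vesicle membrane, 8 calcium sensors and related synaptotagmins, and 6 SNAREs and SNARE regulators. The others are 4 priming factors, and 12 Rab GTPases and their effectors. Not all of the synaptotagmins bind calcium.

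The RNA came from epithelial cells of the jejunum of 8 female Sox9-EGFP mice (C57BL/6J background), sorted for weak reporter fluorescence, the fraction named Sox9-EGFP Low. The sort removed cells stained for Annexin-V (dying cells), CD31 (endothelium), CD45 (leukocytes) or by Sytox-blue (dead cells). The animals form 4 littermate pairs, A to D, all born and raised germ-free. In the germ-free group (GF, n = 4) the animal stayed germ-free, and in the conventionalized group (CV, n = 4) its littermate was chosen at random at 8 to 10 weeks of age, moved to another animal house and gavaged with fecal slurry from conventionally raised mice of the same reporter colony. Both were studied 2 weeks later, so colonization and the change of house cannot be told apart. The study's question is the effect of the microbiota on the stem cell population of the epithelium. Values are CPM, in which each library's signal is brought to the same total, after TMM scaling, which aligns the libraries on their bulk of genes. Fold changes are log2 of CV over GF on the CPM + 0.5 scale, so a negative value means lower in CV, and low genes are understated.

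In neurons and endocrine cells, vesicles are brought to the membrane by Rab GTPases and their effectors, made ready by priming factors of the Munc13 and CAPS families, and fused by SNARE proteins when a synaptotagmin binds calcium. The gut's enteroendocrine cells use the same proteins to release hormones from dense-core granules, and many of these genes are held silent in other epithelial cells. Neurod1 is a basic helix-loop-helix transcription factor of enteroendocrine differentiation that binds E-box sequences, of which CAGATG is one form. REST is a repressor of neuronal and neuroendocrine genes outside those cells, and its binding element has a left part close to TTCAGCACC and a right part close to GGACAG.

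Sequences around the start sites show where such letters occur in genes that are described below. Promoters of 250 bases before to 50 bases after the start were at hand for 29 of the 39 genes (RefSeq, GRCm38.p6) and were searched on both strands. The left part TTCAGCACC occurred in 3 of the 29 (Unc13a, Ptprn2 and Syn1) and in 0.433% of 27025 genes. The right part GGACAG occurred in 9 of the 29 and in 24.7% of the genes. Both parts in order on 1 strand with at most 10 bases between them, a limit chosen after the sequences were known, occurred in 13 of the 27025 genes (0.0481%), among them Unc13a with 8 bases between the parts and Ptprn2 with 0. These are the windows that hold the left part, 5′ to 3′ on the strand of the motif, with both parts in capitals.
Unc13a, chr8:71671724-71671752, plus strand, within an exon: cgcTTCAGCACCgggggcgcGGACAGcgc
Ptprn2, chr12:116485720-116485748, minus strand, within an exon: gccgagcTTCAGCACCGGACAGcgccacc
Syn1, chrX:20921122-20921168, minus strand, outside annotated exons: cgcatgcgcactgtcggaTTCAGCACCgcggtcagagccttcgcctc
The 2 parts do not overlap in Unc13a or Ptprn2. In Syn1 the left part is followed after 2 bases by GGTCAG, which differs from the right part in 1 base. Only exact strings were searched, so Syn1 was not counted with both parts. A match is a string of letters and does not show that a protein binds there.

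The E-box CAGATG occurred in the promoters of 4 of the 29 genes (Rims3, Rimbp2, Syn2 and Cadps) and of 19.2% of the 27025 genes. Windows of Rimbp2 and Syn2, both of them lower in CV as given below, are printed on the strand of the gene, where the E-box reads as its reverse complement CATCTG, in capitals.
Rimbp2, chr5:128953573-128953618, minus strand, outside annotated exons: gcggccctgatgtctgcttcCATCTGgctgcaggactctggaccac
Syn2, chr6:115238864-115238909, plus strand, outside annotated exons: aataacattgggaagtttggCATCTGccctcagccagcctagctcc
The E-boxes begin 112 and 110 bases before a start in the RefSeq table. For Rimbp2 the window lies before the gene, and for Syn2 it lies inside the annotated gene (115134902 to 115282006), before an internal start.

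Most of the exocytosis genes had less transcript in conventionalized animals. Of the 39, 28 reached 10 CPM in at least 4 libraries and were tested, and 19 of these 28 were called lower and 0 higher in CV (limma, Benjamini-Hochberg adjusted p under 0.05 over all 10053 genes tested). In the same fit 3.76% of all genes tested were called lower and 1.16% higher. The median log2 fold change of the 28 was -1.92, beside 0.32 over all genes tested. Their summed level, all 39 genes included, was 773.8, 600.9, 808.2 and 791.8 CPM in CV pairs A to D and 2435, 1538, 2870 and 1769.6 CPM in GF. Each GF library thus lay above each CV library, with means of 744 ± 96.2 and 2153 ± 611 CPM (SD, n = 4), a ratio of 2.90, or 3.50 without TMM scaling.

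The filter bears on these counts, because a gene could pass it on its GF libraries alone. Sv2c and Cadps did so, with no CV library at 10 CPM, and both were called. Of the 26 tested genes with at least 1 CV library at the minimum 17 were called, and of the 16 with all 8 libraries there 10 were called. With a minimum of 1 CPM, 38 of the 39 were tested and 20 were called lower, where 2.34% of 18340 genes were, and 0 higher (0.567% of all). With the littermate pair as a block 21 were called lower, beside 5.02% of all genes tested, and 0 higher, beside 8.08%. The 11 genes not tested at 10 CPM were Sv2a, Sv2b, Syn1, Syt1, Syt4, Syt14, Doc2b, Rims1, Rims2, Rims3 and Sytl4. In 25 of the 39 genes every GF library lay above every CV library, as in 3.5% of the 38312 genes with any signal. Means were lower in CV for 36 genes, and 29 were lower in CV in all 4 littermate pairs. Shares over all genes were not computed for these counts. Of the 28 tested genes, 26 had negative log2 fold changes, beside 2993 of all 10053 genes tested.

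The libraries held epithelial markers as labelled: every goblet, Paneth, enterocyte, stem cell and enteroendocrine marker listed reached 10 CPM in at least 1 library. Depth on an approximate read scale ran from 6209041 in GF pair C to 19139685 in CV pair D. GF pair C had a median correlation of 0.792 with its group, against 0.871 to 0.943 in the other 7 libraries, and it was the highest of all 8 libraries in 21 of the 39 genes. Goblet cell markers summed to 50885 CPM in CV pair A and to at most 8201 CPM in the other 7 libraries. Without both of these libraries 17 of 26 tested genes were called lower, all of them among the 19, beside 4.24% of all 9610 genes tested. Enteroendocrine markers (14 genes) summed to 11381 to 28523 CPM in CV and 45550 to 108863 CPM in GF, and 6 of 14 were called lower. In bulk RNA, fewer enteroendocrine cells and less RNA of these genes per cell cannot be told apart.

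Neurons also express these genes, so their markers are given here. Of 12 enteric neuron markers 7 stayed under 10 CPM in every library, and Hand2 was at 0 in all 8. The list summed to 24.8 to 43.6 CPM in CV and 68.3 to 139 CPM in GF. Of its 2 tested members the neurofilament gene Nefm was called lower (log2 fold change -1.55, limma adjusted p = 0.0347), and the receptor gene Ret had -1.33 (adjusted p = 0.0523). Of 10 connective tissue and endothelial markers 7 stayed under 10 CPM in every library and none was at 0 in all 8. That list summed to 35.1 to 54.3 CPM in CV and 80.5 to 161 CPM in GF, which did not overlap. Of its 2 tested members the endothelial gene Pecam1 was called lower (log2 fold change -2.03, limma adjusted p = 0.0218), and the intermediate filament gene Vim had -1.34 (adjusted p = 0.0749). Mast cell markers summed to 22.4 to 48.7 CPM in CV and 41.0 to 108 CPM in GF, and the 1 tested, Kit, had -1.16 (adjusted p = 0.0893). Of the other lists, 5 of 6 enteric glia, 14 of 15 leukocyte and 6 of 7 mast cell markers stayed under 10 CPM in every library. Tuft cell markers summed to 100.2 to 897 CPM in CV and 392 to 985 CPM in GF. By limma 0 of the 9 tested were called and 0 had an unadjusted p under 0.05. All 9 had negative log2 fold changes (median -0.91), beside 2993 of all 10053 genes tested (median 0.32). Over all genes tested, 2793 of 10053 had an unadjusted limma p under 0.05. The part of nerve, connective tissue, endothelial, mast or tuft cells in the results was not tested.

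**Figure D1:**
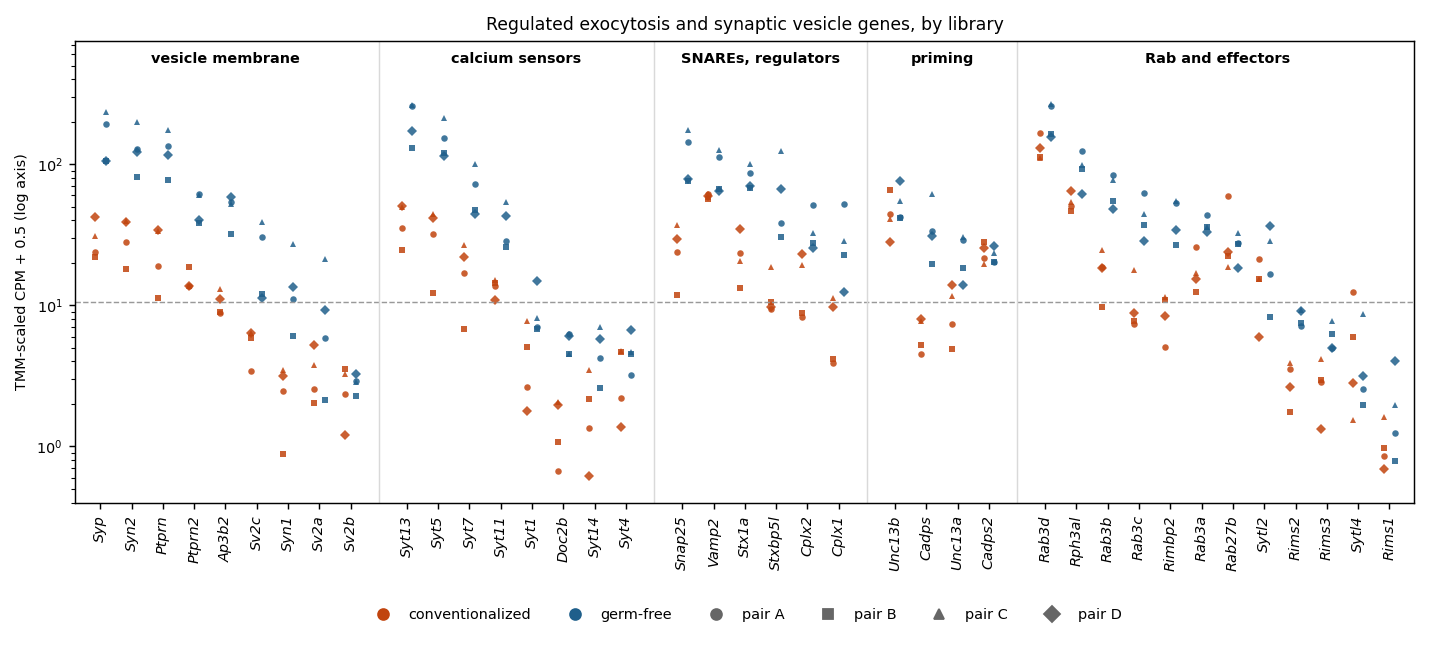
Level of each of the 39 genes in each library, as TMM-scaled CPM + 0.5 on a log axis, ordered within a role by GF mean, with CV in orange, GF in blue and a marker shape for each littermate pair. The dashed line is the 10 CPM minimum, and in 25 of the 39 genes the 4 GF points lie above the 4 CV points.

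The vesicle membrane genes fell together: all 6 tested were called lower in CV, with a median log2 fold change of -2.16, and the summed signal of the 9 was 4.69 times higher in GF. Syp (ENSMUSG00000031144.15, GRCm38 chromosome X, 7638471 to 7653256, plus strand) encodes synaptophysin, the most widely used membrane protein marker of small synaptic-like vesicles. It stood at 23.5, 21.5, 30.3 and 41.6 CPM in CV pairs A to D and at 194, 106, 235 and 105 CPM in GF. The lowest GF value was more than the highest CV value, and the gene was 5.22-fold lower in CV (log2 fold change -2.38, SE 0.34, limma adjusted p = 0.00548). Ptprn (ENSMUSG00000026204.15, GRCm38 chromosome 1, 75247027 to 75264502, minus strand), the dense-core granule protein IA-2, stood at 18.6, 10.8, 33.4 and 33.5 CPM in CV and 133, 76.8, 174 and 116 CPM in GF. Pair B was the lowest of each group, and no values of the groups overlapped (5.39-fold lower, log2 fold change -2.43, SE 0.38, limma adjusted p = 0.00577). Its relative Ptprn2, whose promoter holds both REST element strings, stood at 13.2, 18.3, 13.3 and 13.2 CPM in CV and 61.2, 37.7, 60.0 and 39.7 CPM in GF (log2 fold change -1.72). Its CV values were nearly equal except for a higher one in pair B.

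Syn2, a synapsin that tethers vesicles to one another and to the cytoskeleton, stood at 27.6, 17.5, 39.1 and 38.2 CPM in CV and 128, 80.9, 199 and 122 CPM in GF (log2 fold change -2.09, SE 0.34, limma adjusted p = 0.00587). GF pair C was highest and CV pair B lowest, and the groups did not overlap. The X-linked Syn1, with a REST element string upstream, was too low for the main test at 1.97, 0.386, 2.97 and 2.64 CPM in CV and 10.6, 5.54, 26.8 and 13.0 CPM in GF. Its groups did not overlap, and it was called when the minimum was 1 CPM (adjusted p = 0.0251). Ap3b2, the neuronal and endocrine beta subunit of the AP-3 coat, fell from 49.0 ± 11.8 CPM to 9.93 ± 1.98 CPM (SD, n = 4; log2 fold change -2.23, SE 0.30, limma adjusted p = 0.00548). Among the SV2 transporters, Sv2c stood at 2.90, 5.32, 5.88 and 5.89 CPM in CV and 29.8, 11.6, 38.2 and 10.8 CPM in GF (log2 fold change -1.91, SE 0.47, limma adjusted p = 0.0317), and the other two were low. Of the 8 fits without 1 library Sv2c could be tested in the 4 that left out a CV library, and it was called in 0 of them (adjusted p from 0.0548 to 0.0859). Sv2a averaged 2.90 ± 1.42 CPM in CV and 9.15 ± 8.29 CPM in GF and Sv2b 2.09 ± 1.06 CPM and 2.34 ± 0.409 CPM, with overlapping groups in both.

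Of the 8 calcium sensors and related synaptotagmins, the 4 abundant enough to test (Syt5, Syt7, Syt11 and Syt13) were all called lower in CV. Their median log2 fold change was -2.13, and the summed signal of the 8 was 4.31 times higher in GF. Syt13 (ENSMUSG00000027220.2, GRCm38 chromosome 2, 92915098 to 92956058, plus strand), an atypical synaptotagmin of endocrine cells, stood at 35.0, 24.04, 49.1 and 50.1 CPM in CV and 259, 130.4, 260.3 and 171 CPM in GF. Its highest CV value was well under its lowest GF value (5.14-fold lower, log2 fold change -2.36, SE 0.33, limma adjusted p = 0.00548). Syt5 (ENSMUSG00000004961.7, GRCm38 chromosome 7, 4539765 to 4547541, minus strand), a calcium-binding synaptotagmin of dense-core granules, stood at 31.7, 11.7, 44.0 and 41.1 CPM in CV and 153, 119, 213 and 114 CPM in GF (4.98-fold lower, log2 fold change -2.32, SE 0.39, limma adjusted p = 0.00658). CV pair B was the lowest library for both. Syt7, the slow high-affinity calcium sensor, stood at 16.4, 6.30, 26.4 and 21.6 CPM in CV and 71.8, 47.2, 99.9 and 43.8 CPM in GF (log2 fold change -1.95, SE 0.42, limma adjusted p = 0.0184), and its adjusted p was 0.0609 without GF pair A. Syt11, a synaptotagmin without calcium binding, had the smallest fold change of the 4, falling from 37.2 ± 13.1 CPM to 13.0 ± 1.85 CPM (log2 fold change -1.43, SE 0.31, limma adjusted p = 0.0188). Its adjusted p was 0.0549 without CV pair B, 0.0569 without CV pair D and 0.0606 with no filter on low values.

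The fast synaptic sensor Syt1 was scarce, at 2.15, 4.60, 7.26 and 1.29 CPM in CV and 6.56, 6.31, 7.58 and 14.4 CPM in GF, with overlapping groups. Syt4 and Syt14 also overlapped, at group means of 1.41 to 4.397 CPM. Doc2b, a soluble sensor that acts in insulin granule release, stood at 0.164, 0.577, 1.57 and 1.47 CPM in CV and 5.74, 4.01, 4.02 and 5.56 CPM in GF. These groups did not overlap and Doc2b was called when the minimum was 1 CPM (adjusted p = 0.0459). Divided by exon length, the GF means were 62.9 CPM per kb for Syt5 and 54.5 for Syt13, against 8.77 for Syt7, 7.15 for Syt11 and 1.045 for Syt1. Syt5 and Syt13 were therefore the main synaptotagmin transcripts of the list in GF, and they were also the 2 highest in CV at 13.5 and 10.51 CPM per kb.

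The SNAREs and their regulators did not all move alike: 4 of 6 were called lower, with a median log2 fold change of -1.93. Snap25 (ENSMUSG00000027273.13, GRCm38 chromosome 2, 136713453 to 136782428, plus strand), the plasma membrane SNARE of neurons and endocrine cells, stood at 23.2, 11.3, 36.4 and 29.2 CPM in CV and 144, 75.8, 175 and 78.3 CPM in GF. It was 4.71-fold lower in CV with no overlap (log2 fold change -2.24, SE 0.39, limma adjusted p = 0.00706). Stx1a, the syntaxin that pairs with it, stood at 22.9, 12.7, 20.1 and 34.4 CPM in CV and 86.8, 67.6, 100.5 and 69.7 CPM in GF (log2 fold change -1.89, SE 0.32, limma adjusted p = 0.00620). Again the groups were apart, with CV pair D nearest to GF. Vamp2 (ENSMUSG00000020894.16, GRCm38 chromosome 11, 69088490 to 69092384, plus strand), the vesicle SNARE that completes the complex and is used in many cell types, stood at 61.0, 55.9, 58.3 and 58.7 CPM in CV and 113, 66.3, 126 and 64.4 CPM in GF. Its CV values were nearly equal and lay under all GF values, but GF pairs B and D were close to them and the test was not passed (log2 fold change -0.59, SE 0.29, limma adjusted p = 0.194).

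Stxbp5l (ENSMUSG00000022829.14, GRCm38 chromosome 16, 37114942 to 37384962, minus strand), a tomosyn that holds back SNARE assembly, stood at 8.97, 10.1, 18.1 and 9.27 CPM in CV and 37.6, 30.01, 124 and 65.8 CPM in GF. GF pair C was the highest by far, CV pair C was the highest of its group, and the groups did not overlap (4.79-fold lower, log2 fold change -2.26, SE 0.42, limma adjusted p = 0.00836). The complexins clamp the assembled complex until calcium enters. Cplx1 stood at 3.39, 3.65, 10.8 and 9.30 CPM in CV and 51.4, 22.3, 27.9 and 11.9 CPM in GF (log2 fold change -1.97, SE 0.49, limma adjusted p = 0.0342). GF pair D nearly reached CV pair C, and the call was lost without CV pair A, B or C or GF pair A (adjusted p from 0.0589 to 0.109). Cplx2 stood at 7.78, 8.27, 18.8 and 22.7 CPM in CV and 50.9, 27.1, 32.3 and 25.1 CPM in GF (log2 fold change -1.30, SE 0.39, limma adjusted p = 0.0720). Within pairs its log2 difference was from -2.64 in pair A to -0.14 in pair D, and with the littermate pair as a block it was called (adjusted p = 0.0481).

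Of the 4 priming factors 1 was called lower, and the median log2 fold change was -0.80. Cadps (ENSMUSG00000054423.13, GRCm38 chromosome 14, 12372563 to 12823079, minus strand), the dense-core granule priming factor CAPS1, had the most negative fold change of the 28 genes. It stood at 4.01, 4.71, 7.30 and 7.49 CPM in CV and 33.2, 19.2, 60.9 and 30.6 CPM in GF, 5.43-fold lower (log2 fold change -2.44, SE 0.38, limma adjusted p = 0.00577). All 4 CV values were under the 10 CPM minimum and all 4 GF values above it. Its paralog Cadps2 stood at 21.1, 27.6, 19.2 and 25.0 CPM in CV and 19.8, 19.8, 22.9 and 26.0 CPM in GF, with the groups interleaved (log2 fold change 0.06, SE 0.27, limma adjusted p = 0.885, a sign that turned with library size scaling and in 2 fits without 1 library). Unc13a, the neuronal Munc13 whose transcript start holds both REST element strings, stood at 6.92, 4.37, 11.1 and 13.4 CPM in CV and 28.4, 17.9, 29.996 and 13.3 CPM in GF. CV pair D met GF pair D, and the difference was not called (log2 fold change -1.32, SE 0.41, limma adjusted p = 0.0789), but was with the littermate block (adjusted p = 0.0481). Unc13b, the more widely expressed Munc13, stood at 43.6, 64.9, 40.6 and 27.8 CPM in CV and 41.6, 41.3, 54.5 and 74.9 CPM in GF, with wide overlap (log2 fold change -0.28, SE 0.31, limma adjusted p = 0.552). The 4 priming genes together had a summed signal 1.62 times higher in GF, with overlapping groups (73.6 to 101.5 CPM in CV and 98.2 to 168.4 CPM in GF).

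The Rab3 GTPases mark granules ready for release, and the 4 paralogs had log2 fold changes from -2.09 to -0.68, 3 of them called. Rab3c stood at 6.88, 7.21, 17.2 and 8.36 CPM in CV and 61.5, 36.6, 43.7 and 28.1 CPM in GF (4.25-fold lower, log2 fold change -2.09, SE 0.36, limma adjusted p = 0.00670). Rab3b stood at 18.2, 9.20, 24.1 and 17.9 CPM in CV and 83.5, 54.8, 76.6 and 47.9 CPM in GF (3.81-fold lower, log2 fold change -1.93, SE 0.33, limma adjusted p = 0.00670). In both genes the groups were apart. Rab3a, the main neuronal form, stood at 25.4, 11.9, 16.5 and 14.9 CPM in CV and 43.4, 35.4, 35.2 and 32.6 CPM in GF (log2 fold change -1.12, SE 0.29, limma adjusted p = 0.0433). The 4 GF values lay above the CV values, yet the call held in only 2 of 8 fits without 1 library. It was lost without CV pairs B, C or D or GF pairs A, B or D (adjusted p from 0.0536 to 0.142), and with a 1 CPM minimum (0.0607) or none (0.162). Rab3d, the form of exocrine and other epithelial cells, stood at 167, 112, 109 and 129 CPM in CV and 258, 164, 267 and 155 CPM in GF. Here CV pair A exceeded GF pairs B and D, and the test was not passed (log2 fold change -0.68, SE 0.30, limma adjusted p = 0.169). Per length of exon Rab3d was the highest of the 39 genes in CV, at 30.8 CPM per kb against 7.70 for Rab3a, 4.92 for Rab3b and 0.822 for Rab3c.

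Of the Rab effectors and active zone scaffolds, Rimbp2, which links RIM proteins to calcium channels, was called. It stood at 4.57, 10.4, 10.9 and 7.85 CPM in CV and 52.7, 26.3, 54.3 and 33.4 CPM in GF (4.73-fold lower, log2 fold change -2.24, SE 0.36, limma adjusted p = 0.00587), with the groups apart. Rph3al (Noc2), a Rab3 and Rab27 effector of endocrine granules, stood at 50.3, 46.2, 53.6 and 64.3 CPM in CV and 124, 92.2, 97.9 and 61.0 CPM in GF. The difference was carried by pairs A to C, since GF pair D was under CV pair D, and it did not pass (log2 fold change -0.77, SE 0.28, limma adjusted p = 0.121). Rab27b, which docks granules in many secretory cells, stood at 59.3, 21.9, 18.2 and 23.3 CPM in CV and 26.9, 26.9, 32.1 and 17.9 CPM in GF (log2 fold change 0.10, SE 0.37, limma adjusted p = 0.870). CV pair A was its highest value, and without that library the log2 fold change was -0.30. The granuphilin-type effectors gave no common direction: Sytl2 averaged 14.0 ± 6.33 CPM in CV and 21.96 ± 12.4 CPM in GF (log2 fold change -0.56, SE 0.49, limma adjusted p = 0.443), and Sytl4 5.20 ± 4.88 CPM and 3.58 ± 3.07 CPM. The RIM genes Rims1, Rims2 and Rims3, which scaffold the site of release, had GF means of 1.501, 7.73 and 5.49 CPM. Rims2 stood at 3.03, 1.25, 3.42 and 2.14 CPM in CV and 6.63, 6.94, 8.72 and 8.62 CPM in GF, and its groups and those of Rims3 did not overlap. Over the 8 tested Rab and effector genes 4 were called lower, and the median log2 fold change was -0.94.

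**Figure D2:**
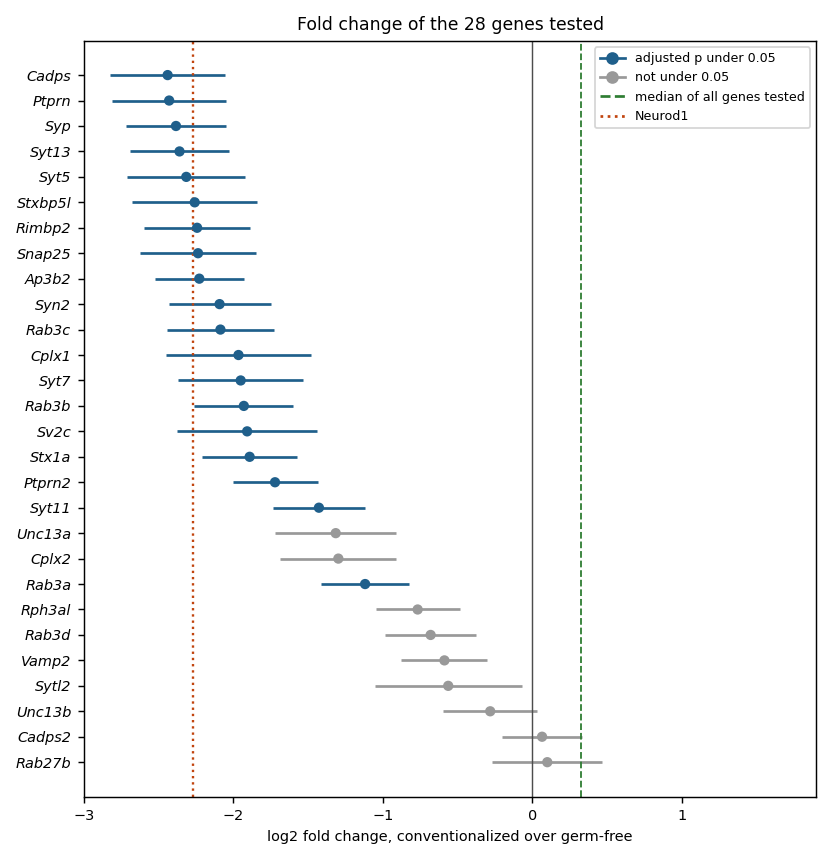
Log2 fold change of CV over GF for the 28 tested genes, with bars of 1 SE, in blue where the limma adjusted p was under 0.05. The 19 called genes lie between -2.44 and -1.12, left of the median of all genes tested (0.32, dashed), and Neurod1 (dotted) is at -2.27.

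Pairs of a called or tested gene and a paralog of the same role allow a comparison within single libraries. The 10 pairs were chosen after the values were seen, so their ratios are a description. The log2 ratio of Snap25 to Snap23, the SNAP of cells outside the nervous system, was -0.63, -1.68, 1.11 and 0.24 in CV pairs A to D and 2.38, 1.58, 3.85 and 2.50 in GF. The means were -0.24 and 2.58, a difference of -2.82, and the groups did not overlap. Syp over Sypl, a synaptophysin-like protein of many tissues, ran from -4.21 to -3.27 in CV and from -1.42 to 1.67 in GF. Sypl itself was at 368 ± 53.2 CPM in CV and 179 ± 86.0 CPM in GF (log2 fold change 1.18, SE 0.39, limma adjusted p = 0.0946), and it was called higher in CV with the littermate block (adjusted p = 0.0323). The ratios of Ap3b2 to the ubiquitous Ap3b1 and of Cadps to Cadps2 differed by -2.55 and -2.51 (CV minus GF).

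Smaller differences were found for Rab3c, Stx1a and Rab3b against Rab3d, Stx3 and Rab3d (-1.41, -1.39 and -1.25), also with groups apart. The ratios of Unc13a to Unc13b (-1.03), Vamp2 to Vamp8 (-0.74) and Rab3a to Rab3d (-0.44) had overlapping groups. In these last pairs GF pairs B and D for Unc13a, GF pair B for Vamp2 and GF pair C for Rab3a lay within the CV range. Apart from the pseudocount such ratios do not depend on how the libraries were scaled, and they do not show which of the 2 genes changed.

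**Figure D3:**
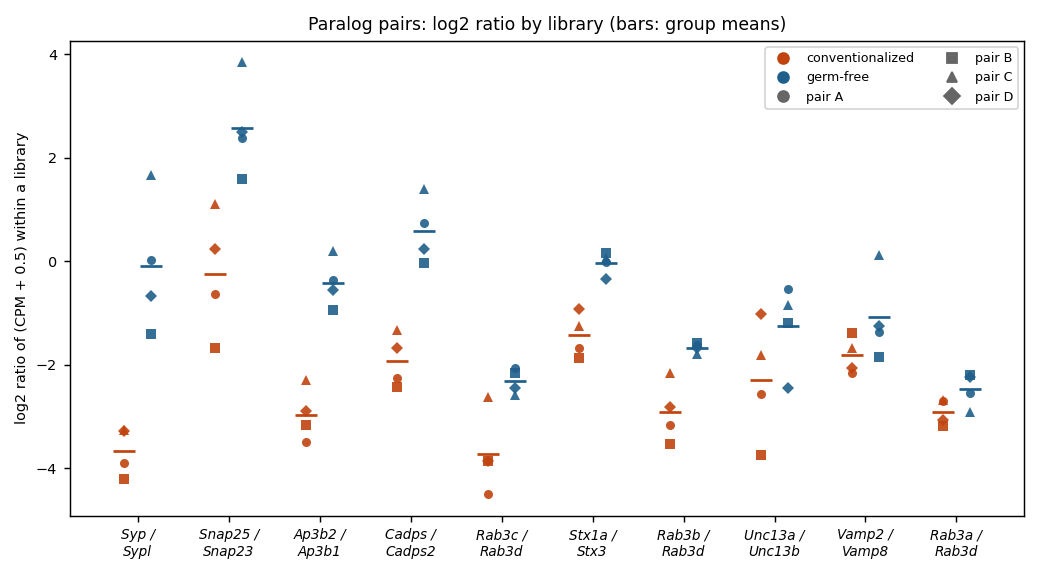
Log2 ratio of (CPM + 0.5) of each gene to its paralog in each library, with bars at the group means, CV in orange, GF in blue and a marker shape for each littermate pair. In 7 of the 10 pairs the 4 GF points lie above the 4 CV points, the difference being greatest for Syp over Sypl (-3.57).

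Other genes of the secretory pathway, from lists kept apart from the 39, were called mostly among granule cargo and enteroendocrine factors. All 10 tested granule cargo and processing genes were called lower (median -2.03), and 6, 5 and 5 of them without CV pair A, CV pair B or GF pair A. Among them chromogranin A (Chga) was at 2411 ± 1284 CPM in CV and 10631 ± 4062 CPM in GF (log2 fold change -2.26, SE 0.53, limma adjusted p = 0.0267), and Pcsk1, a prohormone convertase, at 108 ± 24.5 CPM and 471 ± 180.2 CPM (log2 fold change -2.07, SE 0.34, limma adjusted p = 0.00615). Of 14 enteroendocrine transcription factors 10 were called lower (median -1.54). Among paralogs of the exocytosis genes, Stxbp2, a syntaxin-binding protein of epithelial cells, was at 228 ± 32.1 CPM in CV and 229 ± 27.8 CPM in GF (log2 fold change -0.01, SE 0.28, limma adjusted p = 0.981). The tomosyn Stxbp5 had a log2 fold change of -1.32 (limma adjusted p = 0.0974) and was called lower with the littermate block (adjusted p = 0.0368).

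General parts of the machinery gave few calls, in a fit where 3.76% of all genes tested were called lower and 1.16% higher. Lists this short cannot be set apart from those shares. The exocyst, which tethers vesicles of all kinds, had 0 of 9 members called (median 0.14). By limma 0 of the 9 had an unadjusted p under 0.05, beside 2793 of all 10053 genes tested. Of 13 fusion and Rab regulator genes 1 was called, the small GTPase Rab37 (log2 fold change -1.48, SE 0.36, limma adjusted p = 0.0309), and Madd, an exchange factor for Rab3, was called with the littermate block (log2 fold change -1.09, adjusted p = 0.0627, 0.0326 with the block). Of 14 active zone and vesicle recycling genes 1 was called, the scaffold Pclo, at 17.1 ± 3.94 CPM in CV and 60.7 ± 32.5 CPM in GF (log2 fold change -1.69, SE 0.35, limma adjusted p = 0.0160). Bassoon (Bsn), its partner at the synapse, was at 35.2 ± 8.77 CPM and 18.4 ± 6.73 CPM (log2 fold change 0.98, adjusted p = 0.117, 0.0456 with the block). Vesicle filling genes, 17 tested, held 1 lower and 1 higher call. The lower one was Slc18a1 (VMAT1), which loads monoamines such as serotonin, at 109, 59.6, 191 and 177 CPM in CV and 845, 499, 965 and 502 CPM in GF (log2 fold change -2.46, SE 0.41, limma adjusted p = 0.00620), with no overlap. Rab37 was not called without CV pair A, B or D or GF pair A or D, nor Pclo without CV pair D. The higher call in vesicle filling was the zinc transporter Slc30a2 (log2 fold change 1.93, SE 0.50, limma adjusted p = 0.0420).

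REST and its partners (8 genes, 7 tested) gave 0 calls (limma, 2 at an unadjusted p under 0.05), with a median of 0.10. Of all genes tested, 2793 of 10053 had an unadjusted p under 0.05 in the same limma fit. Rest stood at 26.7, 37.5, 27.6 and 33.9 CPM in CV and 12.1, 24.7, 13.7 and 25.0 CPM in GF (log2 fold change 0.78, SE 0.32, limma adjusted p = 0.144). Its 4 CV values lay above the 4 GF values, where the median log2 fold change of all genes tested was 0.32. A link between Rest and the exocytosis genes was not tested. Sox9, the gene behind the sorting reporter, stood at 252, 387, 356 and 517 CPM in CV and 337, 269, 137 and 241 CPM in GF, with overlapping groups (log2 fold change 0.64, SE 0.36, limma adjusted p = 0.241). Mitosis markers, 9 of 12 called higher in CV, summed to 1498 to 1956 CPM in CV and 201 to 916 CPM in GF, and were lowest in GF pair C, where the exocytosis genes were highest. The part of cell composition in that pattern was not tested.

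Most of the tested exocytosis genes also correlated positively with Neurod1 among animals of the same group, though by Pearson's r only Syp passed adjustment. Neurod1 (ENSMUSG00000034701.9, GRCm38 chromosome 2, 79452521 to 79456751, minus strand) stood at 68.2, 63.7, 97.7 and 114 CPM in CV and 528, 307, 561 and 294 CPM in GF (log2 fold change -2.27, SE 0.34, limma adjusted p = 0.00548). After the group means were removed on the log2 scale, Neurod1 was above its mean in CV pairs C and D and GF pairs A and C, and below it in the other 4 libraries. The mean of the 28 tested genes was above and below in the same 8 libraries, from -0.41 in GF pair B to 0.42 in GF pair C. The median Pearson r of the 28 with Neurod1 over the 8 libraries was 0.756, against -0.18 over 10052 other genes tested. It was positive in 24 of the 28 and in 34.5% of all genes, and at least 0.9 in 3 of the 28 (Syp, Unc13a and Syt13) and in 0.368% of all genes. Without GF pair C the medians were 0.717 and 0.07. The genes share these 8 libraries and their scaling, so their r values are not independent of one another.

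Syp followed Neurod1 most closely, with r = 0.983 and Spearman rho = 1 (exact within-group permutation p = 0.00174 for each, the smallest that 576 arrangements can give, and 0.0486 and 0.0243 after Benjamini-Hochberg adjustment over the 28 relations computed). Without CV pair D and GF pair C, the 2 libraries farthest from the median of Neurod1, r was 0.986. Unc13a, not called between the groups, had r = 0.942 (exact permutation p = 0.00521, adjusted 0.0707) and rho = 0.881 (exact permutation p = 0.00174, adjusted 0.0243), and r = 0.913 without those 2 libraries. Syt13 had r = 0.916 and Snap25 r = 0.877, each with an adjusted exact permutation p of 0.0707, and 0.887 and 0.857 without the 2 libraries. By Pearson's r, Syp alone of the 28 passed after adjustment. At the other end, Unc13b had r = -0.60, Cadps2 -0.26, Sytl2 -0.21 and Rab27b -0.03, all of them genes not called between the groups. Among called genes the lowest were Syt11 (0.07) and Rab3a (0.11), and for Syt11 the value was -0.46 without GF pair C. The 19 called genes had r from 0.07 to 0.983 (median 0.758).

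With the littermate pair also removed as a block, the median r of the 28 was 0.598. The log2 ratio of a gene to Neurod1 differed little between the groups for Stxbp5l (0.01, CV minus GF), Rimbp2 (0.03), Snap25 (0.03) and Ap3b2 (0.04), and by 2.37 for Rab27b and 2.34 for Cadps2. By the mean deviation of the 28 genes, the genes most like them over the 8 libraries were Pcsk1 (r = 0.979), Pam (0.961), Tle2 (0.953), Gm27162 (0.948), Meis3 (0.947), Slco2a1 (0.942), Cyp3a11 (0.935), Gnaz (0.934), Tnfrsf11b (0.932) and B630019K06Rik (0.932). All 10 had negative fold changes and adjusted p under 0.05 between the groups. Neurod1 was in place 15 of 10025 genes outside the list (r = 0.923).

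**Figure D4:**
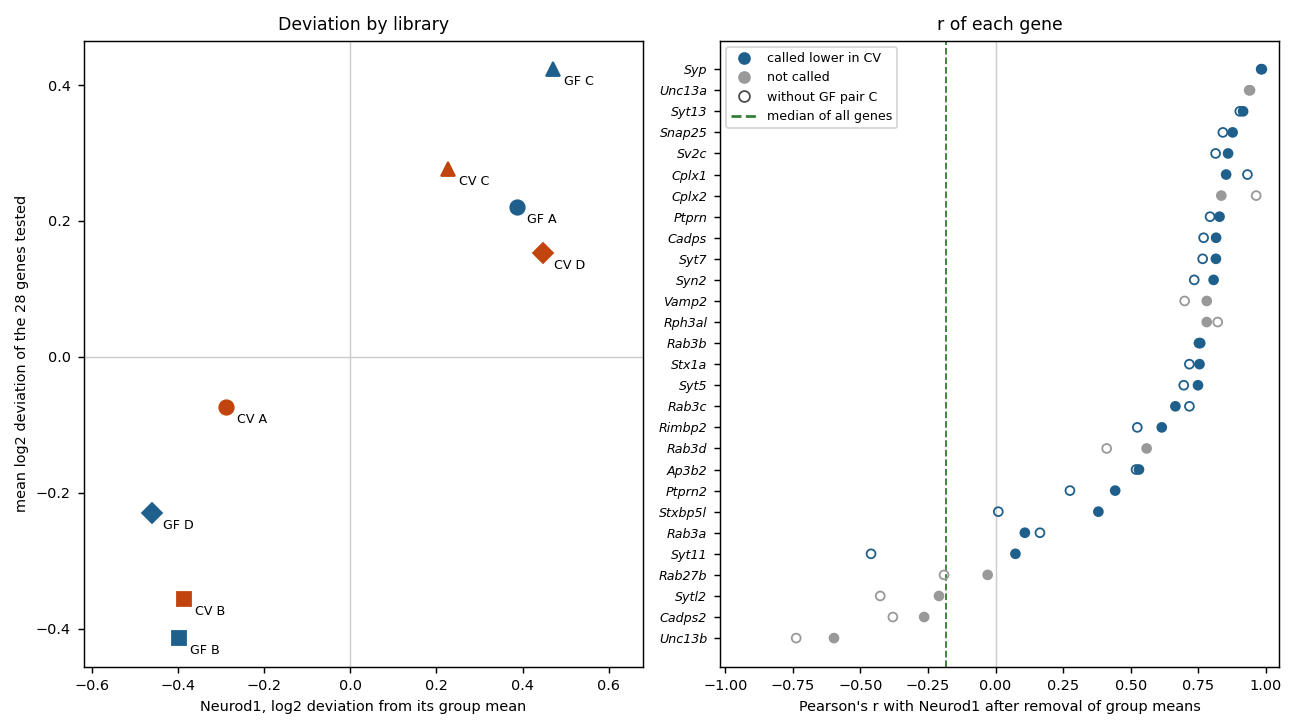
Left, the mean log2 deviation of the 28 tested genes from their group means against that of Neurod1, 1 point a library. Right, Pearson's r of each gene with Neurod1 over 8 libraries (filled) and without GF pair C (open), blue for genes called lower in CV, with the median over all genes tested (-0.18) dashed: 24 of the 28 filled points are above 0 and Syp is highest at 0.983.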

How the data were processed

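Libraries were made from 10 ng of total RNA with the SMARTer Ultra Low Input and Nextera XT kits and read as 100 bp single ends, 4 libraries to a lane, per the labels' protocols. No source used here tells the lanes apart. Salmon and edgeR are named in the series text, and the submitters' processing notes name the build mm10, STAR 2.4.2a, Trimmomatic 0.36, DESeq2 1.12.4 and R 3.3.1. What was deposited is a normalized signal, which the authors derived from estimated counts. For single-transcript genes, 99.8% of the signal values were whole multiples of 1 step in their library (tolerance 0.02), and for genes with more transcripts 22.9% were. Whole reads could therefore not be recovered, no test on whole reads was run, and edgeR, which had been planned in case they could be, was left out. The voom fit, used below as an alternative, was run on this normalized signal and not on whole reads.

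Of 48440 genes, 48058 were matched to GENCODE M21 (GRCm38) and 10128 had no signal at all. Each of the 8 columns matched 1 library's label. CPM were computed with TMM factors (30% and 5% trims), and genes that reached 10 CPM in 4 or more libraries, 10053 in all, entered limma 3.58.1 as log2(CPM + 0.5) (trend and robust, condition as the only term, R 4.3.3), two-sided, n = 4 animals per group. A gene is called where the Benjamini-Hochberg adjusted p over all genes tested is under 0.05, and every adjusted p for a fold change is from limma. Level per length is CPM divided by the summed exon length. Relations to Neurod1 were tested by exact two-sided permutation within groups. The procedure was tested on simulated data. Approximate reads per library set the precision of low genes, and reads without molecular identifiers are not independent molecules.

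The 39 genes, the lists beside them and the alternatives were chosen with earlier results of these data known. Named are all 39 genes, from each other list at most 3 with the lowest p and 2 with the highest level, and always Neurod1, Chga, Rest and Sox9. Marker genes, paralogs in ratios and library values singled out beyond this were chosen after their values were seen. The labels name the littermate pair of each animal. The correlation within a pair of deviations from the group means was 0.14 in pair A, -0.16 in B, 0.31 in C and -0.01 in D, and the pair was fitted as a block as an alternative.

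Reads of paralogs and of genes overlapping on the other strand could be split or shared by the counting, and no source used here says whether strand was used. Some genes of the lists are not reported here.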

Additional observations from a re-analysis of the deposited data

Results flagged for a closer look

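In 5 of the 78 groups of 4 libraries examined (39 genes, both conditions), 1 library lay far from the other 3 by Dixon's test at the 95% level. Chance flags about 1 in 20 groups. Rab27b was at 59.3 CPM in CV pair A, against 18.2 to 23.3 CPM in the other CV libraries, the library that also stood apart in goblet cell markers. CV pair C was high for the tomosyn Stxbp5l (18.1 CPM against 8.97 to 10.1) and for Rab3c (17.2 CPM against 6.88 to 8.36), and remained under every GF library of both genes. Ptprn2 was at 18.3 CPM in CV pair B, against 13.2 to 13.3 CPM in the other CV libraries. Syt1, too low for the main test, was at 14.4 CPM in GF pair D, against 6.31 to 7.58 CPM in the other GF libraries. All 5 were the highest of their group, and the cause was not tested.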

How the results depend on the processing

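All 19 calls kept a negative sign in the fits without 1 library that tested them, and 14 were called in each such fit (Cadps in the 4 that tested it). The exceptions were Syt7, Syt11, Cplx1, Sv2c and Rab3a. Genes of the 39 called lower numbered 14 to 18 without 1 library, 19 or 20 with other scalings or pseudocounts, 18 with no filter (Syn1 gained, Syt11 and Rab3a lost), 22 by voom with quality weights (Cplx2, Unc13a and Rph3al gained) and 17 without the 2 libraries that stood apart. Rph3al was also called with library size only (limma adjusted p = 0.0396). Of all genes tested in the same fits, 1.53% to 3.78% were called lower without 1 library and 3.67% to 4.86% with other scalings or pseudocounts. The share was 0.812% with no filter, 5.50% by voom and 4.24% without the 2 libraries. With the littermate pair as a replicate block 21 of the 39 were called lower (19 kept, Cplx2 and Unc13a gained), and the median r with Neurod1 was 0.598. The block changed no other call among the 39.

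The number of all genes called higher was 117, and 263 with upper-quartile scaling, 45 with no filter, 555 by voom, 812 with the replicate block and 235 without the 2 libraries. Without 1 library it ran from 14 to 410, and that of genes called lower from 151 to 372 (378 with all libraries). Lower genes were 76.4% of calls, 60.8% with upper-quartile scaling, 87.4% with no filter, 63.4% without the 2 libraries, 49.9% by voom and 38.3% with the block. The ratio of the summed signal of the 39 genes was 2.57 to 3.25 without 1 library, and 3.50 with library size only, under which the median log2 fold change of all genes was 0.09. The median r with Neurod1 was 0.718 to 0.826 without 1 library.

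Signs turned with library size only for Cadps2 (-0.17) and Rab27b (-0.13). Without 1 library the log2 fold change ran from -0.021 to 0.149 for Cadps2 (negative without CV pair B or GF pair B) and from -0.299 to 0.289 for Rab27b (negative without CV pair A or GF pair D), and it was -0.16 for Rab27b without the 2 libraries. Neither gene was called in any fit. The cause was not tested.

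With 4 animals a group and 6209041 reads in the shallowest library, genes of a few CPM were tested only with lower minimums. With 1 CPM in 4 libraries, 38 of the 39 were tested (all but Rims1). Doc2b was called there (limma adjusted p = 0.0459), and Sv2b (0.790) and Syt4 (0.431) were not.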
